A study of Mus musculus with 6 samples.

Results

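Genes of insulin and leptin signalling were examined by RNA-seq in livers of WT and *Pai-1*+/- mice. The 9 genes are *Insr*, *Lepr*, *Irs1*, *Irs2*, *Akt2*, *Foxo1*, *Foxo3*, *Trib3* and *Igfbp1*, chosen by symbol from a table of 24421 genes, and each symbol was found once. The series holds 6 liver libraries from C57BL/6 mice aged 21 weeks in the labels, 3 from WT mice and 3 from *Pai-1*+/- mice, which carry 1 null allele of the gene for plasminogen activator inhibitor-1 (PAI-1). All were male in the study's methods, and all were fed chow without restriction. The *Pai-1*+/- mice were bred from *Pai-1*-/- and WT mice, and the allele is missing in every tissue, so it is not a liver-specific model. The value used for each gene is the authors' mean normalized count, the average over all libraries of both genotypes after scaling each library for depth. The deposited counts per animal carry headings that match no sample label. They were therefore not used, and the difference between the genotypes was not analysed here. No SD, replicate value, depth per library or test is given with the levels, and a gene whose level differed between the genotypes would appear with an intermediate value.

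Insulin reaches the liver through the portal vein and binds the insulin receptor, a tyrosine kinase that phosphorylates the adaptor proteins Irs1 and Irs2. The adaptors recruit PI3-kinase, which leads to activation of the serine kinase Akt2, and Akt phosphorylates the FoxO transcription factors and keeps them out of the nucleus. In the fasted liver the FoxO factors are nuclear and drive target genes such as *Igfbp1* and *Irs2*. Leptin, a hormone of adipose tissue, acts through a cytokine receptor that signals by Jak2 and Stat3.

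*Igfbp1* is the usual example of a gene that insulin represses through FoxO, and short stretches before the RefSeq starts of *Igfbp1*, *Irs2* and *Irs1* are shown because they hold the core letters of the insulin response element, CAAAACAA, that FoxO factors are known to bind. Positions count back from the transcription start, each stretch reads 5′ to 3′ on the strand of its gene, and the capitals mark CAAAACAA, read as TTGTTTTG where it lies on the other strand, and the E-box CACGTG. The stretches lie at chr11:7197639-7197726 on the plus strand for *Igfbp1*, chr8:11008930-11009007 on the minus strand for *Irs2* and chr1:82291440-82291512 on the minus strand for *Irs1* (RefSeq, GRCm38.p6), and 0 of their bases are exonic in GENCODE M21.
Igfbp1: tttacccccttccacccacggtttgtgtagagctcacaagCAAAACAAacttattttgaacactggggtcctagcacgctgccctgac
Irs2: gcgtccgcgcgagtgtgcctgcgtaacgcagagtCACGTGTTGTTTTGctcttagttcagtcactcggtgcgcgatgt
Irs1: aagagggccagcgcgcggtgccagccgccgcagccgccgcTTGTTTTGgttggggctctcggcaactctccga
In *Igfbp1* the core occupied positions -108 to -101. In *Irs2* it lay on the other strand at -38 to -31 and directly followed an E-box at -44 to -39. All positions given here hold for the RefSeq starts only. For *Igfbp1* and *Irs1* the GENCODE M21 starts, chr11:7197782 and chr1:82291416, also differ from the RefSeq starts. The GENCODE M21 start of *Irs2* is chr8:11008458, downstream of the whole stretch shown, so the core lies farther from that start. In *Irs1* the core lay on the other strand at -33 to -26, with an E-box at -115 to -110, outside the stretch shown. The second of 2 annotated starts of *Lepr* had the core at -114 to -107, within an exon of *Lepr* in GENCODE.

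Promoter windows of 250 bases before and 50 bases after each start were searched on both strands for CAAAACAA, GTAAACAA (the FoxO consensus) and CACGTG, letters chosen after the windows had been seen. Windows were given for 8 of the 9 genes, all but *Insr*. A GENCODE transcript start on the gene's strand lay in the window for 7 of these 8 genes, but not for *Irs2*. CAAAACAA occurred in 4 of these 8 genes, against 2.88% of all 27025 genes with a window and 2.51% of 32851 windows. GTAAACAA occurred in 0 of the 8 genes and in 1.32% of all genes, and the E-box in 2 of 8 and in 8.09%. The core and the E-box stood in the same window in 0.155% of windows. Over the wider list of pathway genes, described further on, CAAAACAA was found in 6 of 54 genes with a window, or 11.1%. That list includes the 8 genes above, and 4 of its 6 matches are theirs. *Akt2* (4 starts), *Foxo1*, *Foxo3* and *Trib3* held none of the 3 motifs. These matches describe letters only, since no binding was measured.

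**Figure D1:**
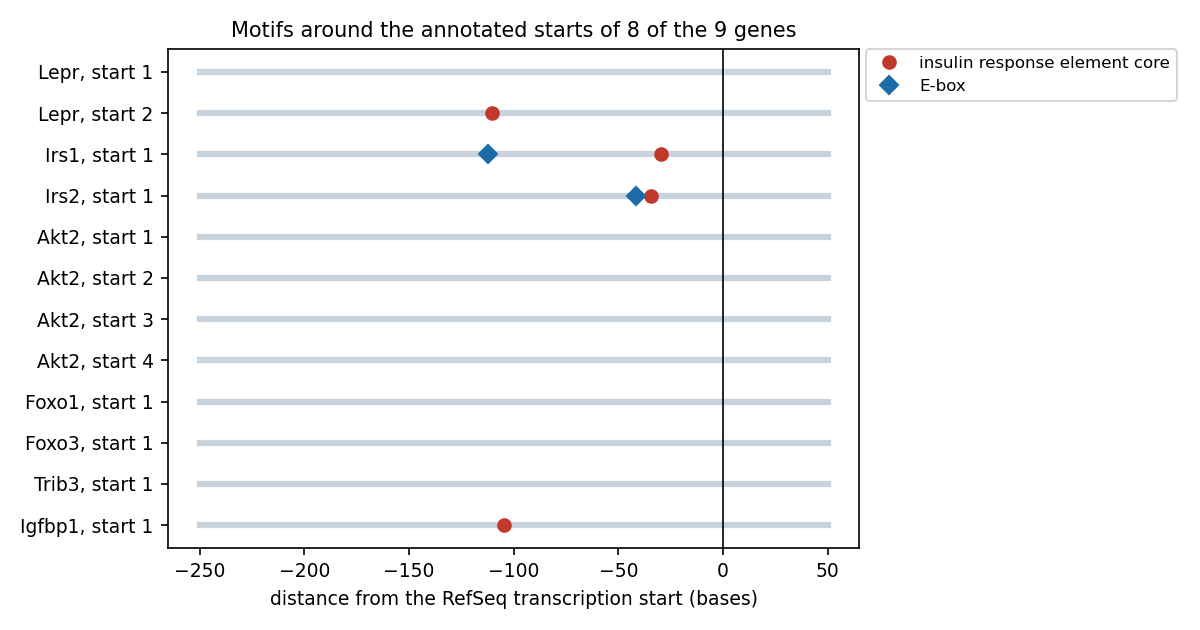
Positions of the insulin response element core (red circles) and the E-box (blue diamonds) in bases from each annotated RefSeq start (vertical line) for 8 genes, with 1 grey line per window from 250 bases before to 50 after the start. Cores stand in *Igfbp1*, *Irs2*, *Irs1* and the second start of *Lepr*, and E-boxes in *Irs1* and *Irs2*.

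The tissue was checked against markers of its cell types. All 5 hepatocyte markers were high, from 56732 mean normalized counts for *Tat* to 2155550 for *Alb* (albumin). Every marker of Kupffer, endothelial and stellate cells and of cholangiocytes exceeded 10, with sums of 5346, 3955, 2450 and 437, so the levels are those of whole liver, and fewer cells of a type and less RNA per cell cannot be told apart. The 4 adipocyte genes summed to 92.7, with *Lep* (leptin itself) at 0.87, *Plin1* at 4.75, *Adipoq* at 7.87 and *Cfd* at 79.2, the pancreatic genes *Ins2* and *Gcg* were listed at 0, and the 4 red cell globin genes were also listed at 0. The other pancreatic genes, *Cela1* and *Prss2*, stood at 242 and 15.4. Whether the globin values of 0 mean no red cell RNA or reads that went uncounted was not tested. Summed levels were 135 for the 3 neutrophil genes, 66.7 for the 4 lymphocyte genes and 3.93 for the 2 skeletal muscle genes. The mean normalized counts summed to 30045982 over the table, and the 10 highest genes took 16.8%.

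The 9 genes covered a wide range of hepatic levels. *Igfbp1* stood far above the others at 16162 mean normalized counts, *Insr* followed at 4798, *Akt2* at 2144 and *Foxo1* at 1876, and *Foxo3* was lowest at 216. Only 243 genes of the table had a higher value than *Igfbp1*, and 8340 were higher than *Foxo3*. Against the 12971 genes above 10, whose median was 440, *Igfbp1* lay at percentile 98.1, *Insr* at 93.3, *Akt2* at 84.9, *Foxo1* at 82.8, *Irs1* at 65.5, *Irs2* at 60.9, *Lepr* at 56.1, *Trib3* at 44.5 and *Foxo3* at 35.7.

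**Figure D2:**
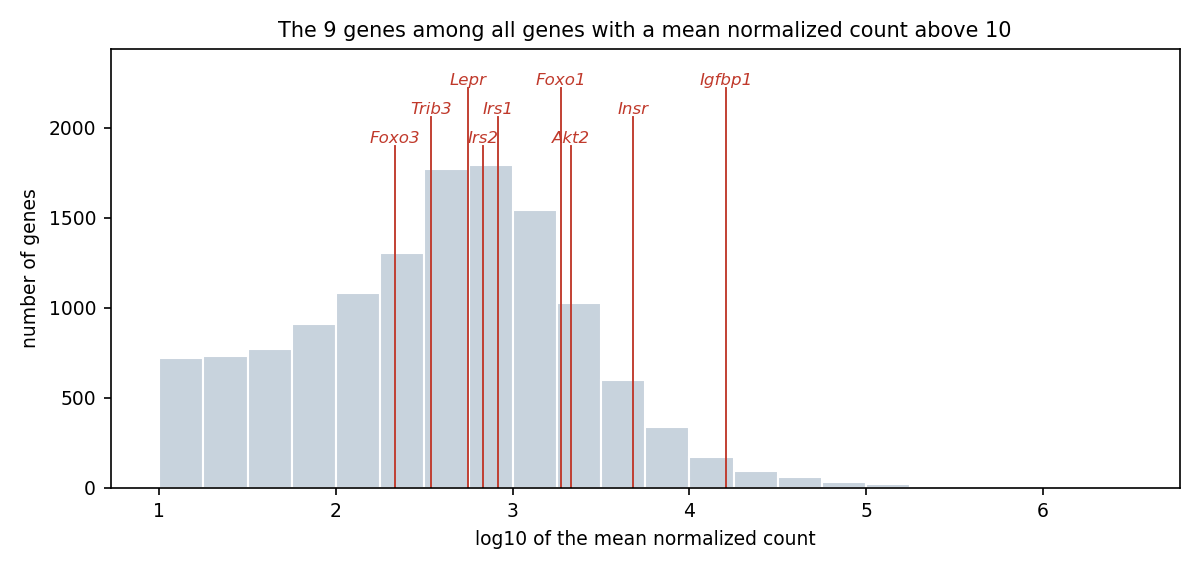
Number of genes (vertical axis) by log10 of the authors' mean normalized count (horizontal axis) for the 12971 genes above 10, in grey bars, with a red line at the value of each of the 9 genes. *Trib3* and *Foxo3* lie below the median of 440, and *Igfbp1* lies in the upper tail.

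Long transcripts collect more reads than short ones, so levels were compared between genes per kilobase (kb) of exon, using all exons of a gene in GENCODE M21. On this scale the order was *Igfbp1* (10598 per kb), *Insr* (349), *Akt2* (301), *Foxo1* (217), *Trib3* (162), *Irs2* (107), *Irs1* (90.4), *Lepr* (79.6) and *Foxo3* (28.6). *Igfbp1* was thus 30.4 times *Insr* and 371 times *Foxo3* per kb of exon, and 17.0 and 185 times per kb of coding sequence. *Trib3* gained most in rank, from the eighth place by mean normalized count to the fifth, because its exons span 2125 bases while those of the other genes except *Igfbp1* span 6323 or more. Of the 36 pairs of genes, 33 kept their order whether all exons, the longest transcript or the coding sequence was used. The 3 pairs that did not are *Insr* with *Akt2*, *Irs1* with *Irs2* and *Irs1* with *Lepr*. These neighbours cannot be ordered from the means, and the order of the others was not tested, since values per mouse were not used here. The median was 94.6 per kb over the 12499 genes with a length and a mean normalized count above 10. Relative to it, 6 of the 9 genes were higher, and *Irs1*, *Lepr* and *Foxo3* were lower.

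**Figure D3:**
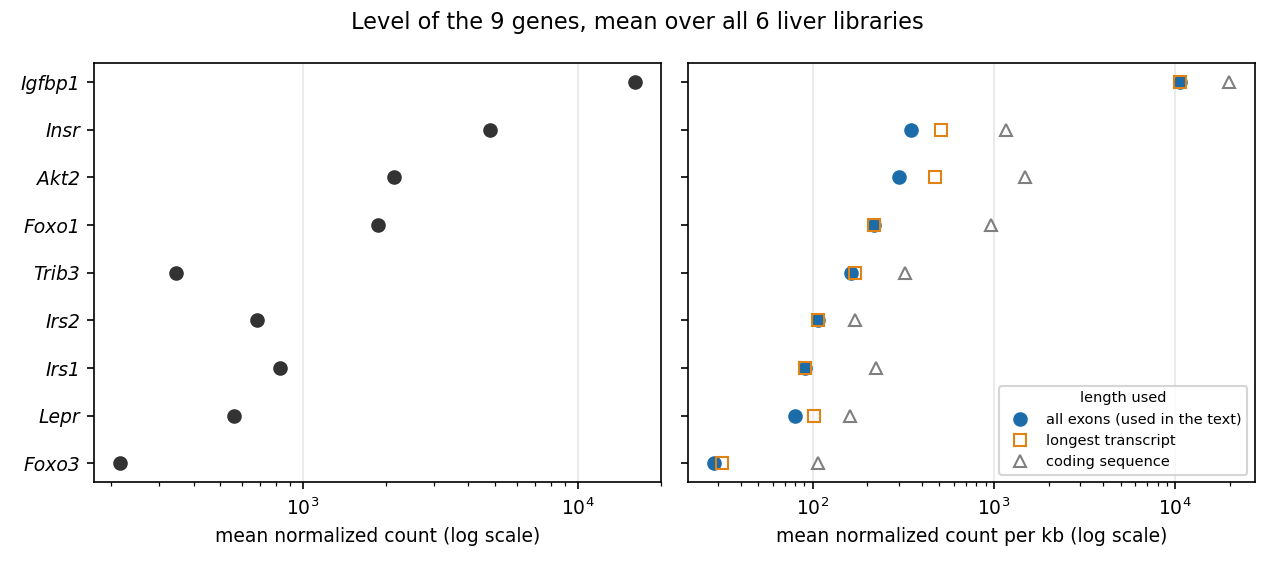
Mean over all 6 libraries for each of the 9 genes, as mean normalized count (left, log axis) and per kb of 3 lengths (right, log axis): all exons (blue circles), longest transcript (orange squares) and coding sequence (grey triangles). *Igfbp1* is highest and *Foxo3* lowest with each length, and *Trib3* moves up when length is taken into account.

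Among the receptors, *Insr* encodes the insulin receptor and lies at chr8:3122061-3279617 on the minus strand (GRCm38), a gene of 157557 bases whose longest coding transcript has 21 exons. Its level was 349 per kb, against 5.71 for *Igf1r*, the receptor of insulin-like growth factor 1, and 0.17 for *Insrr*, the insulin receptor-related receptor. *Insr* was 61.1 times *Igf1r* per kb and 49.9 times per kb of coding sequence, and it made up 98.3% of the summed level of this family. The annotation places an antisense gene, *Gm16180*, within its span, with 0 exonic bases in common. *Lepr* encodes the leptin receptor and lies at chr4:101717404-101815352 on the plus strand. It has 4 coding transcripts of 4 different coding lengths, and the long and short receptor forms differ in the part inside the cell, so the value of 79.6 per kb is a sum over these forms. *Insr* was 4.39 times *Lepr* per kb. The genes of the endospanins, *Leprot* and *Leprotl1*, which lower the leptin receptor at the cell surface, stood at 273 and 232 per kb, or 3.44 and 2.92 times *Lepr*, and per kb of coding sequence the ratios were 8.21 and 10.6. Without division by length, *Leprot* was 0.93 times *Lepr*. Downstream of the receptor, the kinase gene *Jak2* stood at 118 per kb and the transcription factor gene *Stat3* at 477, and *Lepr* was the lowest of the 7 genes of its branch.

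Of the adaptors, *Irs1* (chr1:82233101-82291416, minus strand) had 90.4 per kb and *Irs2* (chr8:10984681-11008458, minus strand) had 107 per kb, and both are annotated with 1 transcript of 2 exons. *Irs2* was 1.19 times *Irs1* per kb of exon but 0.77 times per kb of coding sequence, so neither was clearly the higher. *Irs4*, their relative, was listed at 0. *Gm9747*, annotated as a protein-coding gene on the other strand, shares 2822 exonic bases with *Irs1*, or 30.9% of its exons. It has no value under that symbol among the 24421 genes, so its level is not known here. Whether reads were counted by strand is not stated, so the *Irs1* value could include reads of *Gm9747*. *Irs2* shares 162 exonic bases with *9530052E02Rik* on the other strand, which stood at 0.34 mean normalized counts.

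*Akt2*, the Akt kinase with the main part in insulin action on metabolism, lies at chr7:27591552-27640826 on the plus strand and has 14 annotated transcripts. It stood at 301 per kb, beside 498 for *Akt1*. *Akt2* held 37.6% of the summed level of both per kb of exon and 51.2% per kb of coding sequence. *Akt1* was 1.66 times *Akt2* per kb of exon and 0.95 times per kb of coding sequence, so their order depends on the length.

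*Foxo1* (chr3:52268336-52353221, plus strand) and *Foxo3* (chr10:42181841-42276755, minus strand) encode transcription factors that Akt inactivates. *Foxo1* stood at 217 per kb and *Foxo3* at 28.6, a ratio of 7.58 that ranged from 6.86 to 8.94 over the 3 lengths. The FoxO gene nearest in level to *Foxo1* was *Foxo4*, at 281 per kb, and *Foxo6* was almost undetected at 0.77. *Foxo4* was 1.30 times *Foxo1* per kb of exon and 0.67 times per kb of coding sequence. *Foxo1* thus held 41.1% and *Foxo3* 5.42% of the summed FoxO level per kb of exon. Per kb of coding sequence the shares were 55.9% for *Foxo1*, 37.7% for *Foxo4* and 6.25% for *Foxo3*. *Foxo1* shares 674 exonic bases, 7.78% of its exons, with the antisense gene *Gm20402*, which likewise has no value under its symbol.

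*Trib3* (chr2:152337422-152344032, minus strand) encodes a Tribbles pseudokinase that binds Akt and is described as restraining it. It stood at 162 per kb, between *Trib1* at 524 and *Trib2* at 19.1, and made up 23.0% of the summed Tribbles level, or 9.72% per kb of coding sequence. *Trib1* was 3.23 times *Trib3* per kb of exon and 9.04 times per kb of coding sequence.

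*Igfbp1* (chr11:7197782-7202546, plus strand) encodes a secreted protein that binds insulin-like growth factors and is made mainly by the liver, and the gene has 4 exons in 4765 bases. Its 10598 per kb lay above 98.9% of the genes with a length and a mean normalized count above 10. *Igfbp2* stood at 12925, *Igfbp4* at 12649 and *Igfbp3* at 185 per kb, so that *Igfbp1* was 57.2 times *Igfbp3* (29.9 times per kb of coding sequence) and held 29.1% of the summed level of the 4 genes. With the longest transcript and with the coding sequence it also ranked below *Igfbp2* and *Igfbp4*, at 24.3% and 16.5% of the sum.

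**Figure D4:**
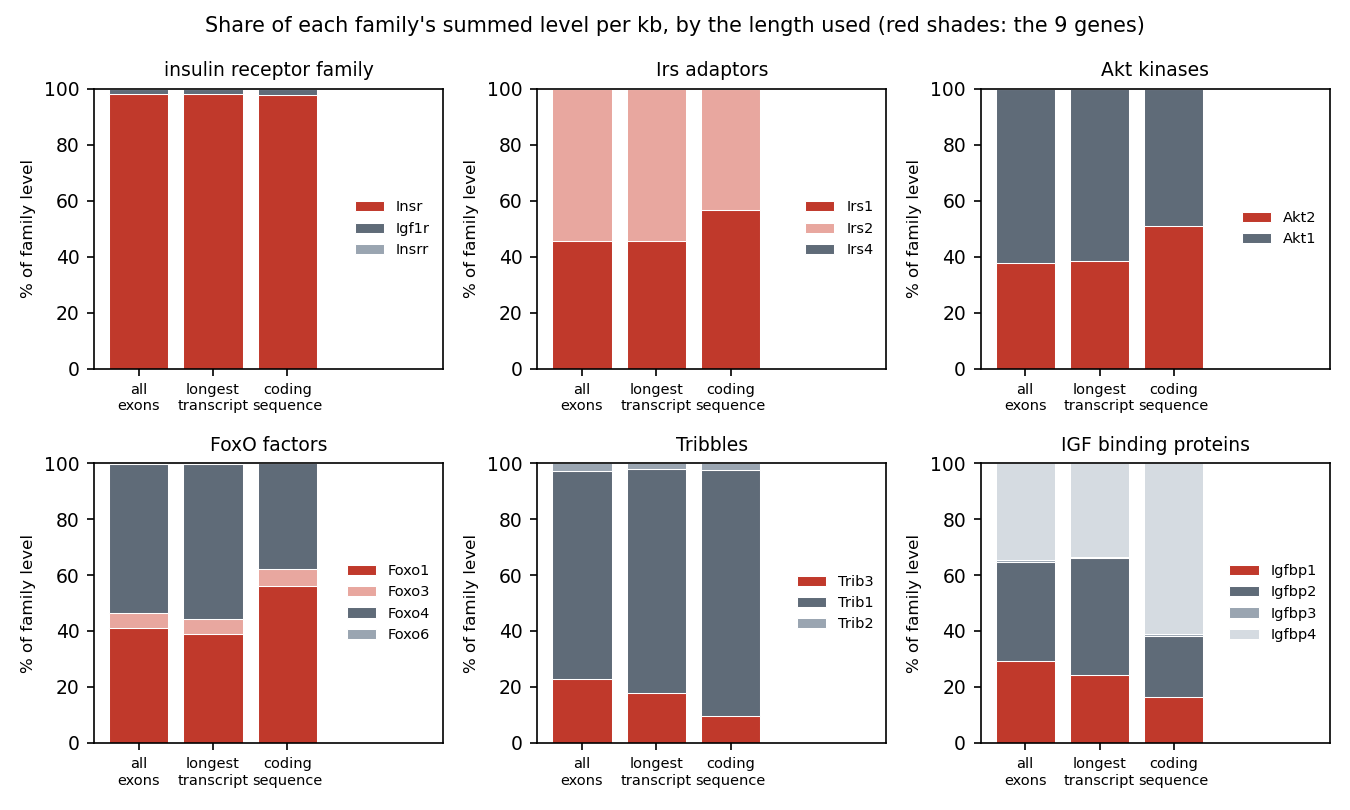
Share (% of the summed level per kb, vertical axis) of each gene within its family, for 3 lengths (horizontal axis), with the 9 genes in red shades and their relatives in grey. *Insr* takes 98.0% or more of its family with each length, whereas the split between *Akt1* and *Akt2*, between *Foxo1* and *Foxo4* and between *Irs1* and *Irs2* shifts with the length.

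The wider pathway was described with a list of 62 genes, the 9 genes and 53 others, sorted by role. Of the 62 genes, 58 exceeded a mean normalized count of 10. The other 4 were *Insrr*, *Irs4*, *Foxo6* and *Socs1*, the last of which encodes a suppressor of cytokine signalling and stood at 7.86. The list had a median of 161 per kb. Of its genes, 44 lay above 94.6, the median over the 12499 genes above 10 with a length. The median of the 9 genes was 162 per kb, and 5 of them lay above the list's median. Among the receptors and their modulators, *Ceacam1*, whose product promotes insulin clearance, was highest at 650 per kb. *Ide*, the insulin-degrading enzyme, stood at 597, and both were above *Insr* per kb of exon. Without division by length *Insr* was the higher, at 4798 against 4484 for *Ide* and 3774 for *Ceacam1*. *Grb2* was the highest adaptor at 492, and the median of the 10 adaptor genes, 109 per kb, lay just above *Irs2*. The PI3-kinase and PDK1 genes ranged from 7.88 for *Pik3r3* to 207 for *Pik3r1*, the main regulatory subunit. In the mTOR branch, *Eif4ebp1* was highest at 510 and *Rictor*, a subunit of the complex that phosphorylates Akt, lowest at 35.7. *Gsk3a* stood at 601 and *Gsk3b* at 142, both kinases of the glycogen branch. Without division by length their values were closer, at 1743 and 1401. The highest and lowest genes of the roles were set per kb of exon only, and some differ by mean normalized count. The 11 attenuators had a median of 148 and ran from *Socs1* at 2.70 to *Trib1* at 524. *Ptprf*, a receptor phosphatase, stood at 418, above *Insr* per kb of exon, but was 0.97 times *Insr* with the longest transcript. *Socs3*, which leptin induces through Stat3, stood at 191, or 2.40 times *Lepr* per kb of exon, 5.07 times per kb of coding sequence and 0.98 times without division by length.

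**Figure D5:**
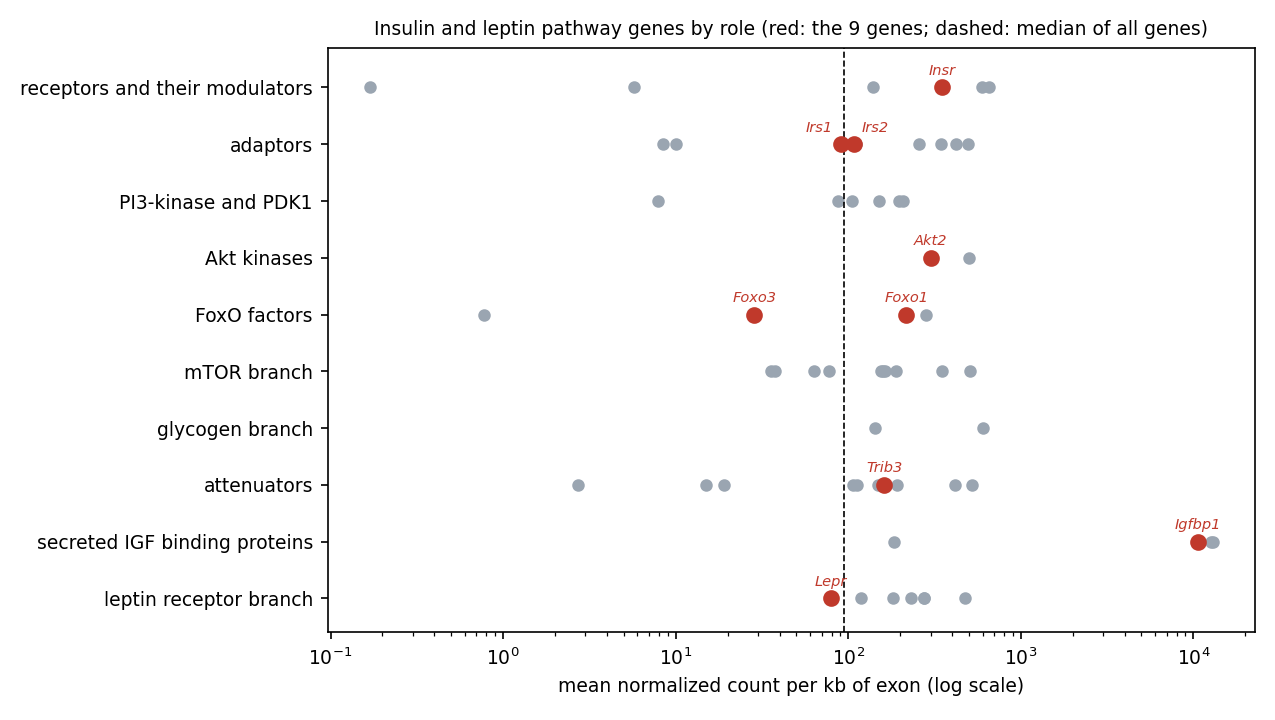
Mean normalized count per kb of exon (log axis) of the pathway genes, 1 row per role and 1 point per gene, with the 9 genes in red and the median of all genes above 10 with a length, 94.6, as a dashed line; *Irs4*, at 0, is not drawn. The binding proteins *Igfbp1*, *Igfbp2* and *Igfbp4* stand apart at 10598 or more, and *Lepr* is the lowest point of its row.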

How the data were processed

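Hepatic mRNA libraries (KAPA mRNA HyperPrep) of 3 WT and 3 *Pai-1*+/- mice were sequenced by the authors as single-end reads and aligned to mm10 with STAR, and genotypes were compared with DESeq2. The processing notes also list HOMER. Versions, annotation and strand setting are not given in the sources used here. The signal used is the mean normalized count in the authors' deposited table, a mean over both genotypes of counts divided by size factors and not by length. The log2 fold changes, their errors, test statistics and p-values of the authors' comparison in the same table were not used, nor were 6 columns of counts per animal, whose headings match no label. The planned test of the genotypes on counts was therefore not run, and depth per library and the spread between mice were not computed.

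Lengths and coordinates came from GENCODE M21 (GRCm38, the assembly named mm10), which matched 96.4% of the 12971 genes above a mean of 10 by a single symbol. The union of exons was the main length, and the longest transcript and the coding length were alternatives. Promoter windows were RefSeq's (GRCm38.p6). Interval and motif functions were tested on simulated data. The genes named are the 9 genes, their nearest relatives, the highest and lowest of each role, genes at 10 or less, overlapping genes and markers. Some genes are left unreported. *Ide*, *Jak2*, *Stat3*, *Gsk3a*, *Ptprf* and *Socs3* were partly named after their values were seen. Members and lists were chosen with earlier results of these data known. Python 3.11.15, NumPy 2.4.6, pandas 2.3.3 and Matplotlib 3.10.9 were used.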

Additional observations from a re-analysis of the deposited data

How the results depend on the processing

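The length by which the mean is divided sets the level per kb. With the longest transcript, the levels were 513 for *Insr*, 101 for *Lepr*, 472 for *Akt2*, 31.6 for *Foxo3* and 170 for *Trib3*, and those of the 4 genes with 1 transcript, *Irs1*, *Irs2*, *Foxo1* and *Igfbp1*, were the same as with all exons. With the coding length they were 1166 for *Insr*, 161 for *Lepr*, 224 for *Irs1*, 171 for *Irs2*, 1486 for *Akt2*, 959 for *Foxo1*, 107 for *Foxo3*, 325 for *Trib3* and 19806 for *Igfbp1*. The rank among the 9 genes moved for 2 genes with the longest transcript, for 4 with the coding length and for 3 without division by length, while *Igfbp1* was first and *Foxo3* last in each. Without the minimum of 10 the percentiles of the mean normalized count rose for all 9 genes, from 35.7 to 52.8 for *Foxo3* and from 98.1 to 98.6 for *Igfbp1*, because 17678 genes above 0 then form the reference. Other normalizations, tools and filters and the omission of each mouse in turn were intended for the genotype difference and were not run, since no column of counts matched a label. No paired analysis was possible because the columns of counts carry no replicate number of the labels. The spread between mice and the counting error were not estimated, since the counts per animal were not used here, so the ratios between genes come with no error.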
